A study of Saccharomyces cerevisiae with 2 samples.

Results

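The phosphate (PHO) regulon of budding yeast (Saccharomyces cerevisiae) and its regulators were examined through 10 genes, PHO84, PHO89, SPL2, PHO5, PHO8, VTC1, PHO81, PHO80, PHO85 and PHO4. A gene entered when a probe set annotated to that gene alone, under its symbol or a synonym, gave a signal on both arrays. All 10 did, each with 1 probe set, among 5656 named genes measured on both arrays. The RNA came from 2 replicates of a single group, the histone H3 K4,36,79R mutant, 12 h after galactose medium was exchanged for glucose medium. The sample titles name them replicate 1 and replicate 2 and do not say whether they were separate cultures. Below, cultures means these 2 replicates. In this strain lysines 4, 36 and 79 of histone H3, which Set1, Set2 and Dot1 methylate, are arginines. A wild-type H3 gene is also present and, per the series' design text, is repressed in glucose so that the mutant H3 remains. Wild-type cultures and the other time points were not analysed here, so what follows concerns the levels in the mutant and the spread between its cultures, and no effect of the substitutions can be given.

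Yeast cells take up and store inorganic phosphate through genes switched on by the transcription factor Pho4. When phosphate is plentiful, the cyclin-dependent kinase Pho85 with its cyclin Pho80 phosphorylates Pho4 and keeps it out of the nucleus. When phosphate is scarce, the inhibitor Pho81 blocks the kinase, and Pho4 with its partner Pho2 turns on transporters, phosphatases and polyphosphate genes. PHO5 is a classical model of promoter nucleosomes that are removed on induction, and loss of Set1 has been linked in earlier work to higher PHO5 expression. How much phosphate the media held is not stated in the sources used here.

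The signal is a linear intensity per probe set in arbitrary units, and it reflects a probe set's hybridisation efficiency as well as RNA level. Values are therefore compared between cultures within a gene. A place above or below the median of all genes says where a probe set lay on the array and does not rank RNA levels between genes. The median over the 10 genes was 77.7 on replicate 1 and 76.2 on replicate 2, a mean of 77.0 ± 1.06 (SD, n = 2), and the median over all named genes was 41.7 ± 0.383 (SD, n = 2). Of the 10 genes, 6 lay above the median of all genes and 4 below it, and 3 of the 6 lay above its 75th percentile. Background was judged from 9 control probe sets for the opposite strand of bacterial controls, which read up to 3.39 on replicate 1 and 4.07 on replicate 2. Mouse control probe sets read lower, up to 0.511 and 1.30, and the higher, opposite-strand level was taken as the limit. With 2 arrays the precision of every value is limited.

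**Figure D1:**
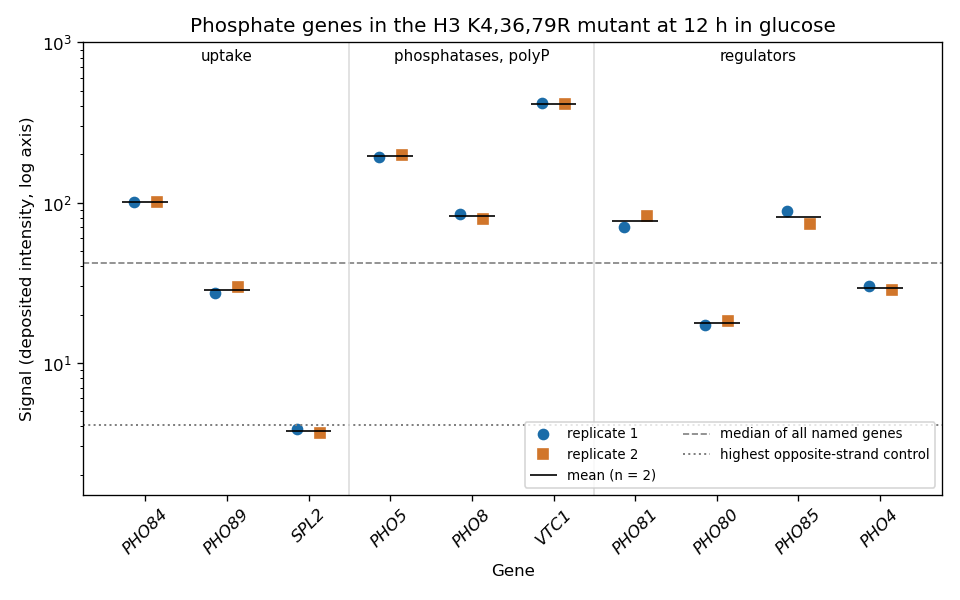
Signal of the 10 phosphate genes (deposited intensity, log axis) on replicate 1 (circles) and replicate 2 (squares), with the mean of the 2 arrays as a bar. The dashed line is the median of all named genes. The dotted line is the highest opposite-strand control of replicate 2 (4.07), and that of replicate 1 (3.39) is not drawn. PHO84, PHO5, PHO8, VTC1, PHO81 and PHO85 lie above the dashed line on both arrays. SPL2, at 3.84 and 3.64, lies just below the dotted line.

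The uptake genes gave signals from well above the controls to the level of the highest opposite-strand control. PHO84 encodes the high-affinity proton-coupled phosphate transporter and lies on chromosome 13. Its signal was 100.4 on replicate 1 and 100.5 on replicate 2, a mean of 100.4 ± 0.121 (SD, n = 2). The cultures differed by a log2 ratio (replicate 2 over replicate 1) of 0.0025, the closest match of the 10 genes. PHO89, on chromosome 2, encodes the sodium-coupled high-affinity transporter that works in alkaline medium. It read 27.2 and 29.9 on replicates 1 and 2, a mean of 28.5 ± 1.91 (SD, n = 2), and replicate 2 was the higher by a log2 ratio of 0.14. Both arrays placed PHO89 below the median of all genes and above the controls.

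SPL2, on chromosome 8, encodes a small protein that lowers low-affinity phosphate uptake during starvation. Its probe set read 3.84 on replicate 1 and 3.64 on replicate 2, a mean of 3.74 ± 0.137 (SD, n = 2). The highest opposite-strand control read 3.39 on replicate 1 and 4.07 on replicate 2, so SPL2 lay above that control on replicate 1 and below it on replicate 2. By that control SPL2 RNA was thus not separated from background, although its probe set read above the mouse controls on both arrays. Its log2 ratio of -0.075 carries little information.

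Among the phosphatase genes, neither PHO5 nor PHO8 differed much between cultures for its signal level. Of the 400 genes nearest in signal, 59.5% lay farther from their median log2 ratio than PHO5 did, and 44% than PHO8 did. PHO5, on chromosome 2, encodes the repressible acid phosphatase secreted to the cell wall space. It had a signal of 191 on replicate 1 and 197 on replicate 2, a mean of 194 ± 4.05 (SD, n = 2) and a log2 ratio of 0.043. Its neighbour on chromosome 2, PHO3, encodes a closely related acid phosphatase that responds to thiamine rather than phosphate. PHO3 had 626 and 673 on replicates 1 and 2, with a log2 ratio of 0.11. The PHO3 and PHO5 probe sets are each annotated to a single gene, but the coding sequences are alike, and cross-hybridisation between them was not tested. A further probe set, shared by the acid phosphatase genes PHO11 and PHO12, read 39.0 and 45.2, a log2 ratio of 0.21. It cannot be assigned to either copy.

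PHO8, on chromosome 4, encodes the vacuolar alkaline phosphatase. Signals of 85.4 and 78.6 were recorded on replicates 1 and 2, a mean of 82.0 ± 4.84 (SD, n = 2), and replicate 2 was lower by a log2 ratio of -0.12. VTC1, on chromosome 5, encodes a subunit of the vacuolar transporter chaperone complex, which makes polyphosphate. It read 416 and 411, a mean of 413 ± 3.53 (SD, n = 2) and a log2 ratio of -0.017. Both genes lay above the median of all genes on each array.

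Among the regulators, the kinase gene and the gene of its inhibitor differed most between cultures, in opposite directions. PHO81, on chromosome 7, encodes the Pho80-Pho85 inhibitor and is itself a Pho4 target. It read 70.8 on replicate 1 and 82.2 on replicate 2, a mean of 76.5 ± 8.09 (SD, n = 2), with replicate 2 the higher by a log2 ratio of 0.22. PHO85, on chromosome 16, encodes the kinase, which also acts with other cyclins in the cell cycle and in glycogen metabolism. Its signal was 88.8 on replicate 1 and 74.0 on replicate 2, a mean of 81.4 ± 10.5 (SD, n = 2) and a log2 ratio of -0.26. PHO80, on chromosome 15, encodes the cyclin. It gave 17.3 and 18.2, a mean of 17.8 ± 0.624 (SD, n = 2) and a log2 ratio of 0.072. PHO4, on chromosome 6, encodes the transcription factor of the regulon. It gave 29.98 and 28.6, a mean of 29.3 ± 0.951 (SD, n = 2) and a log2 ratio of -0.066. PHO80 and PHO4 lay below the median of all genes and above the controls on both arrays.

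To place these differences against the error between cultures, genes in the lowest 25% of mean log2 signal, below a signal of about 19.2, were set aside, and the others were kept. Of 4242 such genes 10.4% differed by 1.2-fold or more and 0.519% by 2-fold or more. The filter kept 8 of the 10 phosphate genes and left out PHO80 and SPL2. Among the 8, only PHO85 differed by 1.2-fold or more and none by 2-fold. That is near the share over all kept genes. PHO85 sat at the edge of the limit, with a log2 ratio of -0.264 against a limit of 0.263 in size. It fell inside the limit after quantile normalisation (-0.24), centring on the median (-0.22), loess (-0.25) and with a pseudocount of 1 (-0.26) or 16 (-0.22). With centring PHO81 passed instead, at 0.264.

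Because error grows at low signal, each gene was also set against the 400 genes nearest to it in mean log2 signal. The central 95% of their log2 ratios ran from -0.30 to 0.32 around PHO85 and from -0.32 to 0.26 around PHO81, so both genes lay inside. The same range was -0.39 to 0.26 around PHO84, -0.44 to 0.21 around PHO5 and -0.28 to 0.20 around VTC1. At the level of SPL2 it widened to -0.87 to 0.70. All 10 phosphate genes lay inside the range of their own signal level. PHO85 and PHO81 nevertheless differed by more than the SD of the ratios around them, which was 0.19 for PHO85 and 0.18 for PHO81. Of the 400 genes nearest in signal, 8.5% lay farther from their median log2 ratio than PHO85 did, and 9.5% than PHO81 did. With an array per culture there is no replicate check on a ratio, and no p-value is given.

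**Figure D2:**
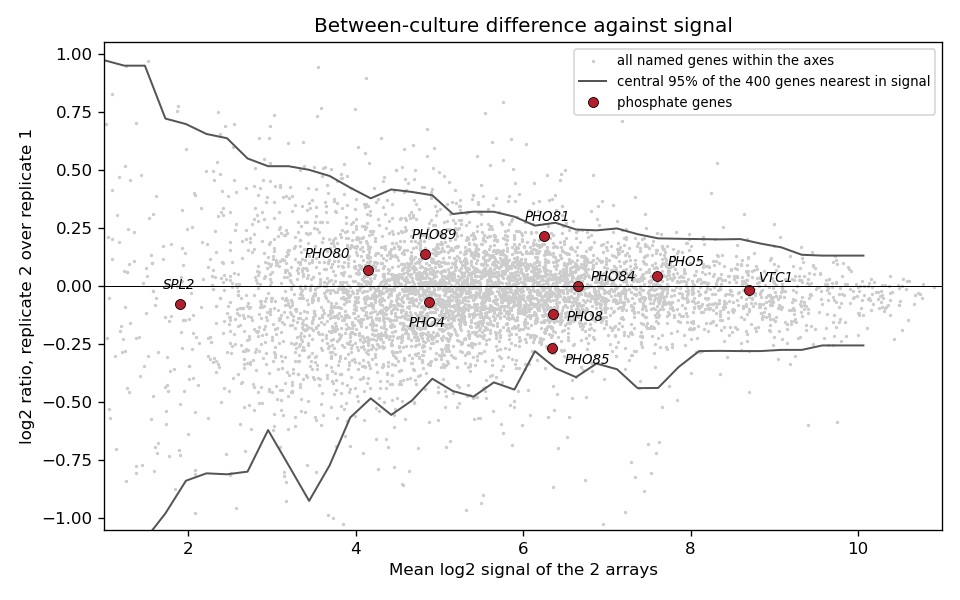
Log2 ratio of replicate 2 over replicate 1 against the mean log2 signal of the 2 arrays, for all named genes within the axes (grey) and the 10 phosphate genes (red, named); the lines bound the central 95% of the 400 genes nearest in signal. All 10 phosphate genes lie between the lines, with PHO85 (-0.26) and PHO81 (0.22) farthest from 0.

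As a list, the phosphate genes showed no common shift. Replicate 2 was the higher in 5 of the 10 and the lower in 5, and 41.7% of all named genes were higher on replicate 2. The 8 kept phosphate genes had a median log2 ratio of -0.0075, beside -0.023 for all kept genes. The median size of the log2 ratio was 0.093 over these 8 and 0.093 over all kept genes, and 0.073 over the 10 and 0.11 over all named genes. The SD was under 10% of the mean for 6 of the 8, and for 81.5% of all kept genes. PHO81, at 10.6%, and PHO85, at 12.9%, were the 2 above that level.

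The genes came from 9 chromosomes, with PHO5 and PHO89 both on chromosome 2. On these arrays 20 kept genes were lower by 2-fold or more on replicate 2, and the low probe sets are numbered between 6178 and 6594 or between 9334 and 9924. The PHO84 probe set, number 9762, is the only one of the 10 in these ranges. The 50 probe sets within 25 numbers of it had a median log2 ratio of -0.011, and 0 of them were lower by 2-fold. After the local median was subtracted, the log2 ratio of PHO84 was 0.014. The same subtraction gave -0.29 for PHO85 and 0.27 for PHO81.

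**Figure D3:**
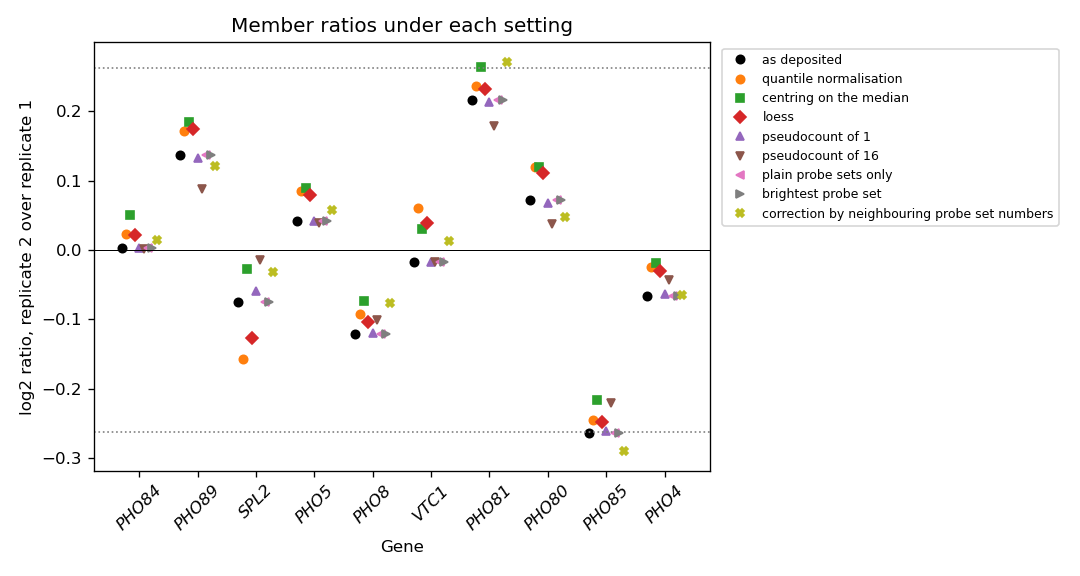
Log2 ratio of replicate 2 over replicate 1 of each phosphate gene as deposited and under 8 alternative settings (symbols), with dotted lines at 1.2-fold. PHO85 (-0.29 to -0.22 over the alternatives) and PHO81 (0.18 to 0.27) lie near the dotted lines and on opposite sides of 0 under each of these settings, and VTC1 (-0.017 to 0.061) lies on both sides of 0.

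The wider phosphate pathway was described through 44 further genes in 6 lists. Of these 42 had a probe set of their own, PHO11 and PHO12 having only the shared one. In all, 33 of the 42 passed the signal filter. Of the 33, 2 differed by 1.2-fold or more, against 10.4% of all kept genes, and none by 2-fold. They were CBF1, lower on replicate 2, and CLG1, higher.

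Among other phosphate carriers and their helpers, none of the 8 kept genes differed by 1.2-fold between cultures. The low-affinity plasma membrane transporters PHO87 and PHO90 read 43.0 and 50.2, and 209 and 225, on replicates 1 and 2. SND3, also known as PHO88 and active in protein targeting to the endoplasmic reticulum, read 884 and 863, and MIR1, the mitochondrial phosphate carrier gene, 835 and 715. GIT1, which encodes a glycerophosphoinositol permease and is induced by phosphate limitation, read 7.86 and 8.21, under the filter and above the controls. The log2 ratios of the list ran from -0.22 for MIR1 to 0.22 for PHO87.

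Among genes that make and break down polyphosphate, none of the 7 kept genes reached 1.2-fold. VTC2 and VTC3, further subunits of the complex to which Vtc1 belongs, read 78.2 and 74.9, and 61.3 and 64.5, on replicates 1 and 2. PPN1, an endopolyphosphatase gene, read 164 and 160, and PPN2, a second polyphosphatase gene, 45.5 and 53.9. VTC5, another gene of the complex, averaged 17.4 ± 0.771 (SD, n = 2) over 4 probe sets that disagreed, from 10.4 to 38.2 on replicate 1.

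Of 4 other genes induced by phosphate starvation, 2 passed the signal filter, and neither of these reached 1.2-fold. PHM6, of unknown function and induced by phosphate starvation, read 2.30 and 2.41 on replicates 1 and 2, under the highest opposite-strand control on both arrays. Like SPL2 it was not separated from background by that control, and it read above the mouse controls. PHM7 gave 13.1 and 14.6. PHM8, a nucleotide phosphatase gene, gave 75.6 and 68.0, a log2 ratio of -0.15.

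Of the signal and promoter factors, 7 of 11 were kept, and CBF1 was the only one of the 7 past 1.2-fold. Replicate 2 was the lower for 8 of the 11 and the higher for 3. Over all 11 the median log2 ratio was -0.21, the value of PHO2, beside -0.030 for all named genes. That median includes PHO2, VIP1, IPK1 and PHO92, which were under the filter. The 7 kept genes ran from -0.29 to 0.20, and a median over them alone was not taken. PHO2 (-0.21), ARG82 (-0.15), KCS1 (-0.14) and the brightest VIP1 probe set (-0.14) lie in the ranges of low probe set numbers given above. So do PHM6 (0.065) and the brightest VTC5 probe set (0.24). IPK1, MSN5 and PHO92, numbered 6146, 6121 and 6116, lie just below the first range and were lower (-0.53, -0.26 and -0.22). PCL2 and PCL9, from the cyclin list below, are numbered 6603 and 6641, just above it, and were higher (0.21 and 0.22). These genes, like PHO2, ARG82 and KCS1, are on chromosome 4. A link to probe set number or to those ranges was not tested. PHO2, which encodes the homeodomain partner of Pho4, read 20.0 on replicate 1 and 17.3 on replicate 2, under the filter. CBF1, whose product binds the same core DNA letters as Pho4, read 44.0 and 35.9, a log2 ratio of -0.29. PSE1, the gene of the importin that carries Pho4 into the nucleus, read 242 and 273. IPK1, an inositol phosphate kinase gene, read 10.4 and 7.16, a log2 ratio of -0.53 that lay inside the range of -0.62 to 0.50 at its low signal. VIP1, another inositol phosphate kinase gene, averaged 17.5 ± 2.43 (SD, n = 2), with a log2 ratio of -0.29, over 6 probe sets that disagreed, from 1.85 to 128 on replicate 1. The VIP1 probe set at 128 on replicate 1 read 116 on replicate 2, a log2 ratio of -0.14. PHO92, an RNA-binding protein gene, read 4.60 and 3.95, above the highest opposite-strand control on replicate 1 and below it on replicate 2.

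Of the cyclins other than Pho80 that act with Pho85, 8 of 9 were kept, and CLG1 was the only one of the 8 past 1.2-fold. PCL1 and PCL2, cyclins of the G1 phase, read 57.9 and 64.2, and 23.4 and 27.2, on replicates 1 and 2. PCL5, a cyclin for turnover of the transcription factor Gcn4, read 193 and 195, and PCL10, a cyclin of glycogen control, 15.1 and 14.4. CLG1, a cyclin-like gene, read 99.8 and 125, a log2 ratio of 0.33. The range at that signal was -0.36 to 0.23, so CLG1 lay outside it, and the other 41 wider genes lay inside theirs. By construction 5% of all genes lie outside such a range.

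**Figure D4:**
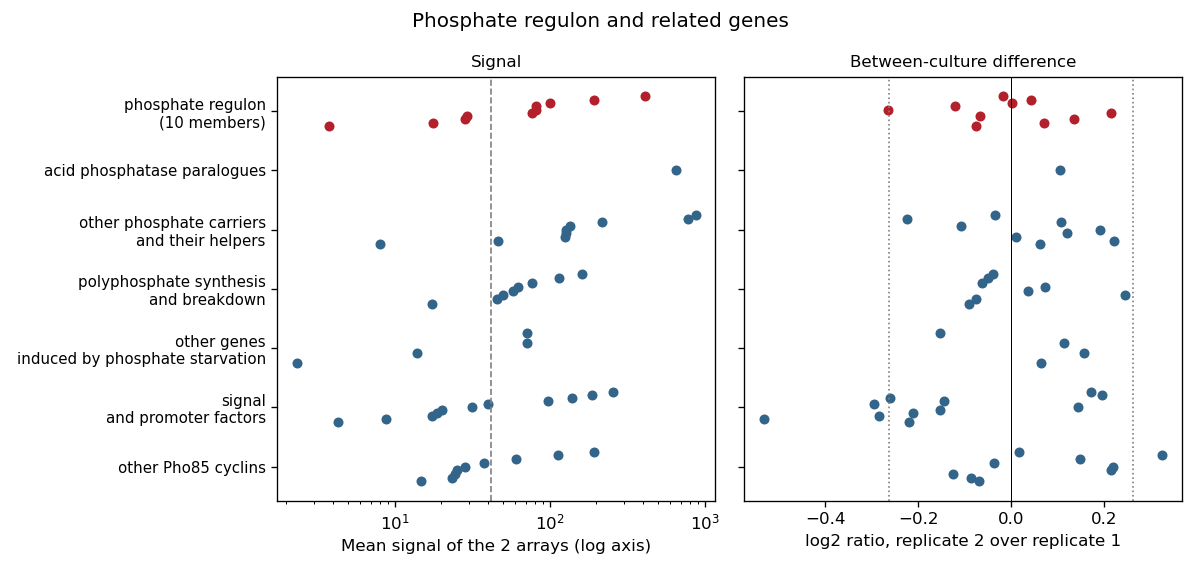
Mean signal of the 2 arrays (left, log axis, dashed line at the median of all named genes) and log2 ratio of replicate 2 over replicate 1 (right, dotted lines at 1.2-fold) for the 10 phosphate genes (red) and 6 lists of related genes (blue), 1 point per gene. The 2 kept wider genes past 1.2-fold are CBF1 (-0.29) and CLG1 (0.33); VIP1, the mean of 6 disagreeing probe sets, and IPK1 also lie past the left dotted line and were under the signal filter.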

How the data were processed

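RNA from the 2 replicates was measured on an Affymetrix expression array each. Per the labels' protocols about 20 ug of total RNA was made into biotin-labelled cRNA. The authors deposited linear intensity values, 1 per probe set. The submitters' processing notes name MAS5, without a version or settings. On each array every value is a whole multiple of a single step (0.0639 and 0.0617 on replicates 1 and 2).

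Of 9335 probe sets, 6504 had a single gene in the platform annotation, and symbols were updated by gene identifier to RefSeq's R64 table. A gene's value was the mean log2 signal of its probe sets, without values of 0. Chromosomes were read from systematic names. The arrays form a single group, so no test was made, and lists are described by counts and medians. Members, lists and rules were chosen with earlier results of these data known. Genes named from the wider lists were the first 2 measured, those with the highest and lowest signal and that with the largest ratio. PHO11, PHO12, VIP1, ARG82, KCS1, MSN5 and PCL9 were added once values were known. Alternatives were other scalings, pseudocounts, probe set choices and filters, a correction by probe set number and leaving out a replicate. Sequences were not used here. The software was pandas 2.3.3 and numpy 2.4.6 under Python 3.11.15, with statsmodels 0.14.6 for loess, scipy 1.17.1 for ranks and matplotlib 3.10.9 for plots.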

Additional observations from a re-analysis of the deposited data

How the results depend on the processing

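The count of phosphate genes past 1.2-fold between the cultures was 1 (PHO85) as deposited. It was 0 after quantile normalisation, 0 after loess, and 0 with a pseudocount of 1 or 16, and 2 (PHO81 and PHO85) after the correction by neighbouring probe set numbers. PHO85 and PHO81 lay near the limit, and the cause of each change was not tested further. In the 6 wider lists the count was 2 as deposited. It was 4 after centring on the median, 4 with no signal filter, and 1 with a pseudocount of 16 or the filter at the median. CLG1 was past 1.2-fold under each of the 10 alternatives, but the probe set choices and filters among them could not change its ratio. CLG1 has 1 plain probe set. No phosphate gene reached 2-fold under any of these 10 alternatives. Of 60 single-gene ratios recomputed for the 10 phosphate genes under other scalings, pseudocounts and the neighbour correction, 0 moved by more than the SD of the 400 genes nearest in signal. That limit is wide: the smallest such SD was 0.14, for VTC1, and centring shifts every gene by the same amount. The 2 choices among probe sets could not move these genes, which have 1 plain probe set each, and the filters do not change a ratio. VTC1, near 0, ran from -0.017 to 0.061, and the median of the kept phosphate genes from -0.0075 to 0.042. The median signal of the 10 genes was 76.2 without replicate 1 and 77.7 without replicate 2, and 6 of 10 lay above the median of all genes on each array alone. SPL2, PHM6 and PHO92, near the opposite-strand control level, allow no statement on RNA level. No paired analysis was possible because both arrays belong to a single group. The planned search for promoter motifs was not run, since no promoter sequences were used here.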
